A study of Mus musculus with 6 samples.

Results

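The genes described are 10 transcription factor genes that give sensory neurons of the dorsal root ganglion (DRG) their identity, namely Isl1, Pou4f1, Runx1, Runx3, Tlx3, Prdm12, Drgx, Etv1, Maf and Shox2. They were chosen by name, with earlier results of these data known but by no rule on measured values, and were looked up in the annotation of the array, where a gene is measured by short groups of oligonucleotides called probe sets. Under their own symbols, 7 of the 10 genes had 21 probe sets, of 45037 probe sets tested and 18193 genes that the array measures on their own. Drgx had 1 further probe set, listed under its other name Prrxl1. Etv1 was listed only on 3 probe sets shared with the pseudogene Gm5454, and Prdm12 was not analysed here.

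RNA from DRGs of Meis1 mutant and control mice was hybridized to Affymetrix mouse arrays, 1 array per mouse, with 3 mice in each group, all at P60 (2 months). The mutants, called Meis1cko, carried a Meis1 allele whose exon 8, a homeodomain exon, Nav1.8-Cre deletes. This Cre acts in most nociceptors from late embryonic life on, so that most other DRG neurons and the non-neuronal cells keep the gene. The control mice are given only as controls for the arrays, and neither their Cre status nor the sex of the mice is stated for them. DRGs of the neck, chest and lumbar levels were used for the RNA, and the values of the levels are not separate, so that each value is a mixture of all cell types of the ganglion, and fewer cells of a type and less RNA per cell cannot be told apart.

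Sensory neurons of the DRG fall into nociceptors, which detect pain, itch and temperature, and larger myelinated neurons, which detect touch and the position of the limbs. Isl1 and Pou4f1 act in nearly all of these neurons when they leave the cell cycle and switch on the sensory program. Other factors then divide the classes: Runx1, Tlx3, Prdm12 and Drgx act in the nociceptor lineage, Runx3 and Etv1 in proprioceptors, and Maf and Shox2 in touch neurons. Meis1 codes for a homeodomain protein of the TALE class that is known to bind DNA at a TGACAG core.

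The promoters of the factors were searched for the TGACAG core, since Meis1 is the deleted gene, in RefSeq windows of 300 bases, 250 before and 50 after each start, of the mouse build GRCm38.p6. The core was found on either strand in 2 of 12 promoters, which belong to 9 of the 10 genes, and in 19.2% of all 32851 promoters of the same length. The 2 stretches that hold it, in Runx3 and Pou4f1, are shown because they are the only places where the motif of the deleted factor was found in these windows. They lie at chr4:135120395-135120445 on the + strand and at chr14:104468078-104468131 on the - strand, each printed 5′ to 3′ along its gene, with the core in capitals (for Pou4f1 it is read on the opposite strand, as CTGTCA).
Runx3: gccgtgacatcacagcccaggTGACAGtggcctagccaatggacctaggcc
Pou4f1: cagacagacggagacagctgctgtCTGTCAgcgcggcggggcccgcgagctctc
The core begins 229 bases before the start in Runx3 and 108 bases before it in Pou4f1. A match of letters is a description of the sequence and says nothing of whether Meis1 binds there, and the arrays hold no binding data.

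The replicate 3 arrays of both genotypes stood apart from the others before any comparison. The log2 ratio of the 3′ to the 5′ probe sets of Actb, a sign of RNA quality or of labelling, was 0.423 and 0.44 on them and from 1.23 to 1.66 on the other 4 arrays. Each genotype holds 1 such array. Values without them are given where they change a result, which does not mark them as the poorer arrays. Which arrays had the better RNA was not tested, nor was the part of this difference in the values of the factor genes.

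None of the 7 genes passed the test between the genotypes on its brightest probe set (limma, Benjamini-Hochberg adjusted over all probe sets, lowest adjusted p = 1.0). Over all 45037 probe sets, 7 passed the same threshold of 0.05, which is 0.0155%. At an unadjusted p under 0.05, 0 of the 7 genes and 2.32% of all probe sets were found. The log2 difference, Meis1cko minus control, lay above 0 for 4 genes and below 0 for 3, and ranged from -0.67 for Pou4f1 to 0.32 for Runx3. Its median was 0.03, beside -0.01 over all probe sets tested, and lay between -0.10 and 0.22 when single arrays were left out, so that no direction can be given for the group. The SD of that median between arrays of the same genotype was 0.24. All 7 genes had a mean intensity above the median of the arrays.

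The 3 probe sets on which all Meis1cko arrays exceeded all control arrays belonged to Isl1 and Shox2. They were 3 of the 21, or 14.3%, against 3.21% of all probe sets tested, and 0 of the 21 had every Meis1cko array below every control array, against 3.43%. Over the brightest probe sets alone, only Shox2 showed no overlap. With 3 arrays against 3, the exact two-sided permutation test cannot go below p = 0.1, which is the value of each of the 3. Arrays with the same replicate number deviated together, so each Meis1cko array was also set against the control array of its number. Numbers 1 and 2 also deviated together across genotypes, and the labels do not say what the numbers mean. The Meis1cko array was higher in all 3 pairs for Isl1, Runx3 and Shox2, where 13.2% of all probe sets were, and lower in all 3 for Pou4f1 and Maf, where 15.7% were. With the replicate number as a block in the fit, no gene of the 7 passed the adjusted threshold (lowest adjusted p = 0.561, Runx3), against 0.0822% of all probe sets. At an unadjusted p under 0.05 in that fit, Runx3 lay higher and Pou4f1 and Maf lower on their brightest probe sets. These were 3 of 7 genes, against 6.99% of all probe sets. The other Pou4f1 probe set met the same cut upwards, with a log2 difference of 0.30, and was higher in all 3 pairs. Over the 21 probe sets, 2 met the cut upwards and 2 downwards, so no direction can be given for Pou4f1.

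**Figure D1:**
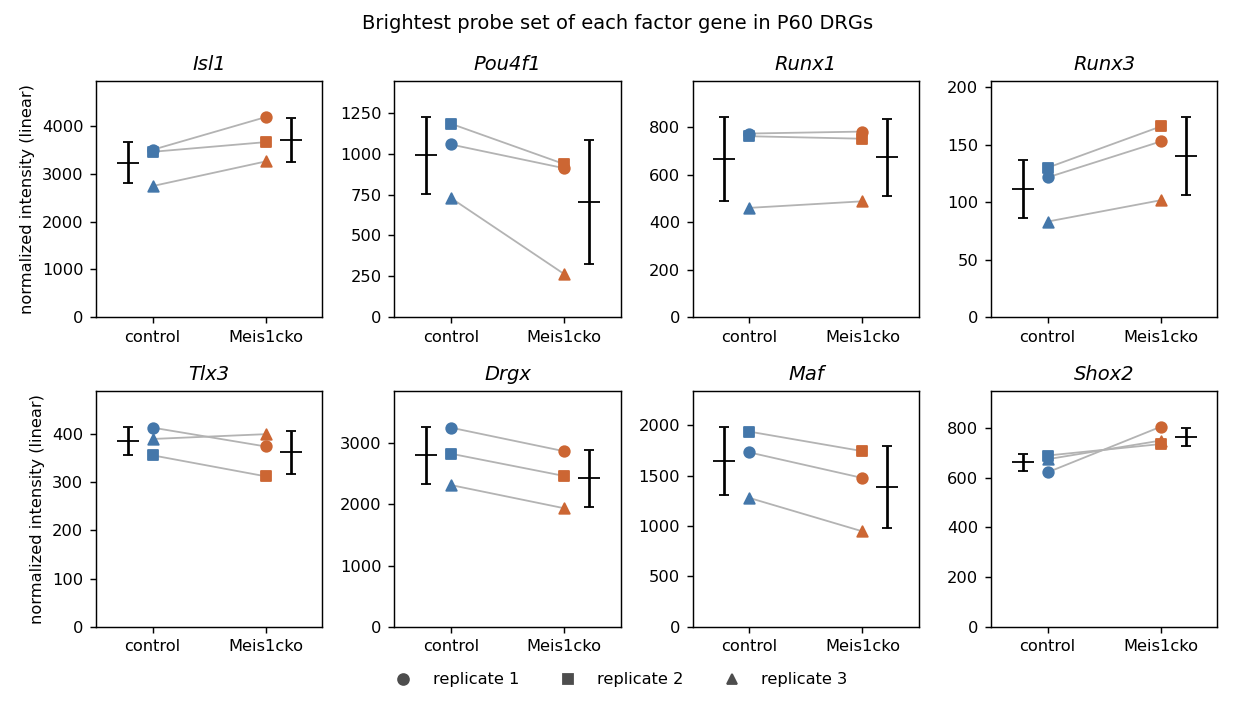
Normalized intensity on a linear scale (vertical axis, starting at 0, with its own range per gene) for the brightest probe set of 8 factor genes, in 3 control and 3 Meis1cko mice. Symbols mark the replicate number, grey lines join arrays of the same number, and the black bars beside them give the mean and SD. Only for Shox2 do the genotypes not overlap, and in Pou4f1 the lowest array is Meis1cko replicate 3.

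Isl1 codes for a LIM homeodomain factor that is needed for the switch from progenitor to neuron and for nociceptor genes afterwards. Its brightest probe set read 3506, 3464 and 2746 in the control replicates 1 to 3 and 4192, 3667 and 3263 in the Meis1cko replicates 1 to 3, as normalized intensities. The Meis1cko arrays were each higher than the control array of the same number, but the groups overlapped. The means were 3239 ± 427 and 3708 ± 466 (SD, n = 3 each), a log2 difference of 0.20 (SE 0.15, 95% interval -0.17 to 0.56). The other Isl1 probe set read 1793, 1954 and 1774 in controls and 2513, 2106 and 2012 in Meis1cko, with every Meis1cko array above every control array. Its log2 difference was 0.26 (SE 0.13, 95% interval -0.05 to 0.57), and neither Isl1 probe set passed the test. The difference on the brightest probe set was 0.08 without control replicate 3 and 0.10 without Meis1cko replicate 1.

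Pou4f1 codes for the POU homeodomain factor also called Brn3a, which closes the early neurogenic program and starts the expression of subtype genes. It is the gene whose promoter window held the core on the opposite strand. Its brightest probe set read 1056, 1184 and 729 in controls and 911, 937 and 264 in Meis1cko. Each Meis1cko array was lower than its partner, and Meis1cko replicate 3 lay far below all the others. The means were 989.7 ± 234 and 704 ± 381 (SD, n = 3 each), a log2 difference of -0.67 (SE 0.48, 95% interval -1.81 to 0.46). Without Meis1cko replicate 3 the log2 difference was -0.07, and without both replicate 3 arrays it was -0.28. The other Pou4f1 probe set went the opposite way, with 669, 775 and 559 in controls and 769, 939 and 755 in Meis1cko and a log2 difference of 0.30 (SE 0.16, 95% interval -0.08 to 0.69). On that probe set each Meis1cko array was higher than its partner, so that the direction of Pou4f1 depended on the probe set read. Per array, the log2 ratio of the brightest to the other Pou4f1 probe set was 0.66, 0.61 and 0.38 in controls and 0.25, -0.00 and -1.52 in Meis1cko, so that the ratio was lower in every Meis1cko array than in any control array.

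Among the factors of the nociceptor lineage, Runx1 stood closest to 0. Runx1 codes for a Runt domain factor that sets apart the nonpeptidergic nociceptors and their ion channels and itch receptors. Its brightest probe set read 774, 762 and 461 in controls and 782, 752 and 488 in Meis1cko. Arrays of the same number were nearly equal, and the replicate 3 arrays of both genotypes were the lowest. The means were 666 ± 178 and 674 ± 162 (SD, n = 3 each), a log2 difference of 0.03 (SE 0.26, 95% interval -0.59 to 0.65), which still allows a change from 0.66-fold to 1.56-fold. Without both replicate 3 arrays it was -0.0023, so no direction can be given. The other 5 Runx1 probe sets had log2 differences from -0.09 to 0.12, of which 3 were above 0.

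Tlx3 codes for a homeodomain factor that nociceptors which depend on Runx1 need for their development. Its only probe set read 413, 356 and 389 in controls and 374, 312 and 399 in Meis1cko. The groups overlapped, and the pairs did not all go the same way. The means were 386 ± 28.9 and 362 ± 45.0 (SD, n = 3 each), a log2 difference of -0.10 (SE 0.14, 95% interval -0.42 to 0.23). Without Meis1cko replicate 2 it was 0.0043.

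Drgx codes for a paired-like homeodomain factor found in DRG nociceptors and in their targets in the dorsal horn, and nociceptors need it for survival and for their connections. Its probe set read 3256, 2830.1 and 2318 in controls and 2870.2, 2466 and 1938 in Meis1cko. Every Meis1cko array was lower than its partner, by -0.18, -0.20 and -0.26 on the log2 scale, while the groups overlapped. The means were 2801 ± 469.8 and 2425 ± 467 (SD, n = 3 each), and the log2 difference was -0.21 (SE 0.19, 95% interval -0.66 to 0.24, adjusted p = 0.743 with the replicate block in limma). It was -0.06 without Meis1cko replicate 3, -0.10 without control replicate 1, and -0.34 without Meis1cko replicate 1 or control replicate 3. With Drgx counted, 8 genes had a median log2 difference of -0.04, and 6 of the 8 went the same way in all 3 pairs, 3 upwards and 3 downwards.

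Of the factors of large myelinated neurons, Runx3 had the highest difference of the factor genes on a brightest probe set. Runx3 codes for the Runt domain factor that proprioceptors need to keep the neurotrophin receptor TrkC and to reach the ventral spinal cord, and its promoter window held the core on the gene's own strand. Its brightest probe set read 121, 129.9 and 83.1 in controls and 153, 166 and 102 in Meis1cko. The pair differences were close to each other, at 0.33, 0.35 and 0.29 on the log2 scale, although the groups overlapped, with replicate 3 the lowest array of each genotype. The means were 111 ± 25 and 140.0 ± 33.9 (SD, n = 3 each), a log2 difference of 0.32 (SE 0.24, 95% interval -0.24 to 0.89). Leaving out single arrays gave from 0.13, without control replicate 3, to 0.54, without Meis1cko replicate 3, and 0.19 without Meis1cko replicate 2, and without control replicate 3 Shox2 lay higher than Runx3 (0.22). The second Runx3 probe set read 62.6, 65.2 and 77.9 in controls and 57.7, 70.1 and 92.5 in Meis1cko, and its log2 difference was 0.08 (SE 0.19).

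Etv1 codes for an ETS factor, also called Er81, through which proprioceptors form their connections with motor neurons. The brightest of its probe sets, which the annotation also gives to Gm5454, read 1684, 1811 and 2062 in controls and 1771, 1915 and 2083 in Meis1cko. The log2 difference was 0.06 (SE 0.13, 95% interval -0.25 to 0.36). The other 2 shared probe sets had differences of -0.02 and -0.01, so that all 3 lay close to 0. How much of this signal belongs to Etv1 and how much to the pseudogene cannot be told apart.

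Maf codes for a basic leucine zipper factor, c-Maf, that rapidly adapting touch neurons need for their endings in the skin. Its brightest probe set read 1732, 1938 and 1280.3 in controls and 1478, 1744 and 948 in Meis1cko. Each Meis1cko array was lower than its partner, and the groups overlapped. The means were 1650.2 ± 337 and 1390.0 ± 405 (SD, n = 3 each), a log2 difference of -0.27 (SE 0.26, 95% interval -0.87 to 0.33), and without Meis1cko replicate 3 the difference was -0.02. The other 5 Maf probe sets were split, with 3 differences above 0 (0.03 to 0.25) and 2 below (-0.17 and -0.02). As for Pou4f1, the log2 ratio of the brightest to the next Maf probe set was lower in every Meis1cko array (1.53, 1.63 and 1.06) than in any control array (1.80, 1.90 and 1.67). Of the 6 factor genes with several probe sets, this ratio was lower in every Meis1cko array for 2, higher in every one for 1 (Shox2, 2.14, 1.99 and 2.01 against 1.87, 1.96 and 1.94 in controls), and overlapped for Isl1, Runx1 and Runx3. Over the 9010 genes with several probe sets of their own, it was lower without overlap for 3.11% and higher for 2.7%.

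Shox2 codes for a homeodomain factor that touch neurons need to express the neurotrophin receptor TrkB. Its brightest probe set read 622, 689 and 674 in controls and 805, 736 and 749.7 in Meis1cko. All Meis1cko arrays lay above all control arrays. The means were 662 ± 35.6 and 764 ± 36.9 (SD, n = 3 each), a log2 difference of 0.21 (SE 0.11, 95% interval -0.06 to 0.47), and limma's adjusted p was 1.0. The second Shox2 probe set read 169.7, 177 and 176 in controls and 183, 186 and 186 in Meis1cko, again without overlap, and the log2 difference was 0.09 (SE 0.11). Of the 7 genes, Shox2 and Isl1 were the only ones with a probe set that did not overlap between genotypes.

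**Figure D2:**
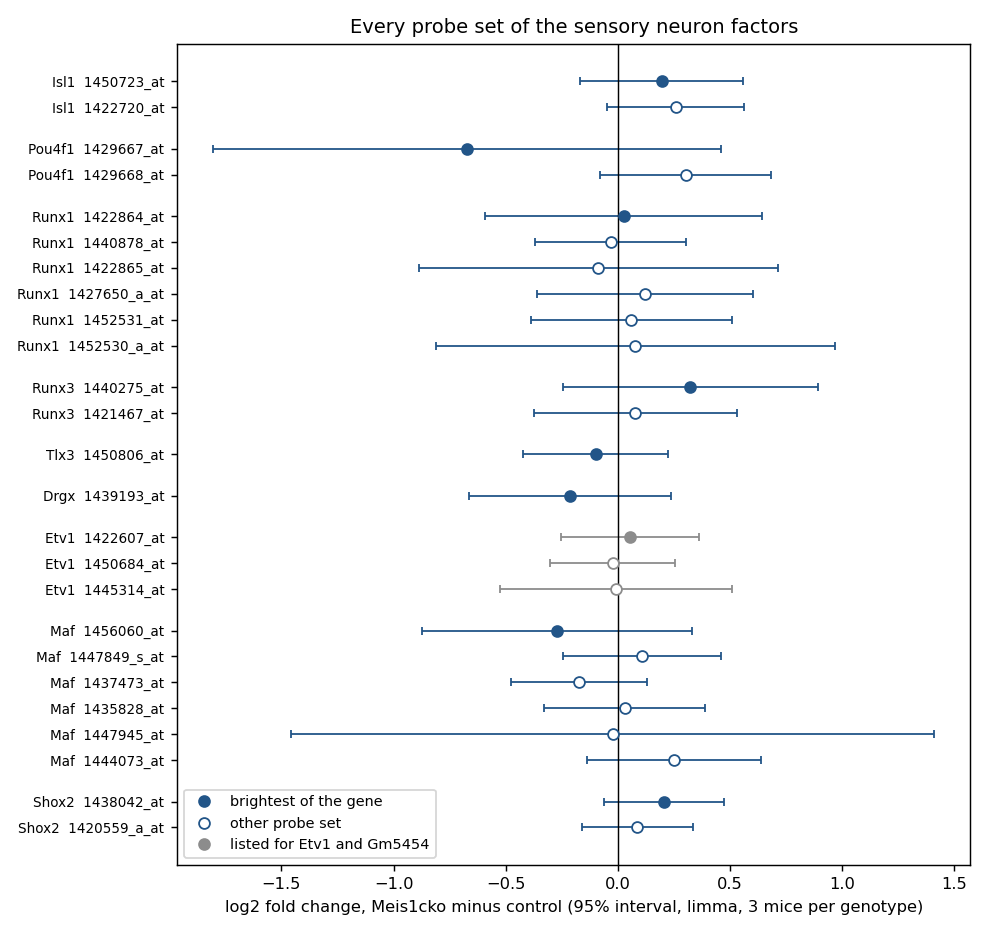
Log2 difference, Meis1cko minus control (horizontal axis), with its 95% interval from limma, for each probe set of the factor genes, 3 mice per genotype. Filled points are the brightest probe set of a gene, open points the others, and grey points the probe sets listed for both Etv1 and Gm5454. Every interval contains 0, and the widest is that of a dim Maf probe set, from -1.46 to 1.41.

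Counting Drgx, the 95% interval stayed within 1 log2 unit of 0, that is within a 2-fold change, for 7 of 8 genes, with Pou4f1 as the exception. The narrowest interval on a brightest probe set was that of Shox2, which allows from 0.96-fold to 1.39-fold. With the replicate number as a block, the SE of the same arrays fell from 0.48 to 0.23 for Pou4f1, from 0.26 to 0.10 for Runx1 and from 0.24 to 0.10 for Runx3. The fall was smaller for Tlx3 (0.139 to 0.106), and the SE of Shox2 hardly changed (0.113 to 0.109). Of the 6 genes with several probe sets, 3 (Pou4f1, Runx1 and Maf) had probe sets of both signs.

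The replicate 3 arrays of both genotypes deviated in the same direction on most of the factor probe sets. On 19 of the 21 probe sets, both replicate 3 arrays lay on the same side of the mean of their replicates 1 and 2, and 7 lay over 0.5 log2 units away on both, 3 higher and 4 lower. The brightest Runx1 probe set was lower on replicate 3 by -0.74 in controls and -0.65 in Meis1cko, while another Runx1 probe set was higher by 1.02 and 0.81. Maf showed the same contrast, with -0.52 and -0.76 on its brightest probe set and 1.62 and 1.82 on a dim probe set. Over all probe sets, the median distance without regard to sign was 0.192 in controls and 0.236 in Meis1cko. The share of all probe sets with both replicate 3 arrays on the same side was not counted. Over all probe sets the deviations of both replicate 3 arrays correlated at 0.766, so this agreement is not particular to the factor genes.

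**Figure D3:**
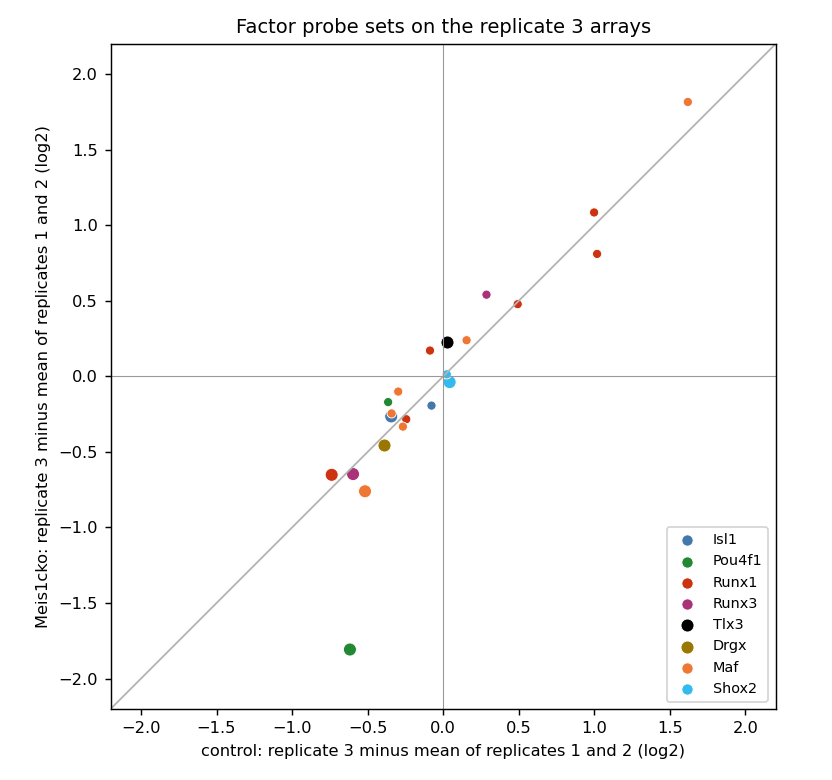
Each point is 1 of the probe sets of the factor genes, placed by the log2 distance of the replicate 3 array from the mean of replicates 1 and 2, in controls (horizontal axis) and in Meis1cko (vertical axis). Large points are the brightest probe set of a gene, colours mark genes, and the grey diagonal marks equal distances. Points lie near the diagonal on both sides of 0, except the brightest Pou4f1 probe set at -0.62 and -1.81.

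Meis1 itself read 109.7, 144 and 90.2 in controls and 66.0, 72.1 and 64.2 in Meis1cko on its brightest probe set, with no overlap. The log2 difference was -0.74 (SE 0.18, limma adjusted p = 1.0), and where the probes lie relative to exon 8 was not analysed here. The other Meis1 probe sets were dimmer, with control means of 32.0 and 20.2, and had log2 differences of 0.13 and -0.16. The deleted gene, too, did not pass the threshold over all probe sets. Summed intensities of 10 general neuron markers ranged from 110175 to 121655 in controls and from 110501 to 123167 in Meis1cko, and the 2 ranges overlapped. Glial markers (7 of 7 above the median intensity) summed to 44294 to 49261 in controls and 44956 to 46860.5 in Meis1cko. Of these 7, 2 had every Meis1cko array below every control array, against 3.43% of all probe sets. Differences were above 0 for 3 of the 7 and below 0 for 4. Of the 8 spinal cord markers, 1 was above the median intensity. Fibroblast markers summed to 9082 to 14352 in controls and 6393 to 8355 in Meis1cko without overlap, with log2 differences below 0 for 5 of 5 and a median of -0.54. Of 10 macrophage markers, 8 had differences below 0, with a median of -0.23 and summed levels of 1937 to 3373 and 1723 to 2707. Over all 45037 probe sets, 23810 differences lay below 0. Summed levels overlapped for lymphocytes (446 to 752 and 516 to 593), endothelium (629.6 to 769 and 582 to 856) and skeletal muscle (266 to 3155 and 424 to 1103). No marker was at 0. The part of these non-neuronal cells in the values of the factor genes was not tested.

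Factors that work with the genes described, or belong to the same families, were measured for 17 of 22 genes listed, and 0 passed the adjusted threshold or had an unadjusted p under 0.05. Their log2 differences lay above 0 for 9 and below 0 for 8, with a median of 0.02. Cbfb, the binding partner that Runx1 and Runx3 share, had means of 6929 ± 314 and 6389 ± 483 (SD, n = 3 each) and a log2 difference of -0.12. Ldb1, the cofactor of Isl1, had -0.04, and Isl2, the closest relative of Isl1, had -0.10. Ldb1 also showed the pattern of replicate 3, with 391 and 376 on those arrays and 118 to 155 on the others. Etv5, an ETS factor related to Etv1, read 1785, 1679 and 1961 in controls and 1644, 1443 and 1546 in Meis1cko, with every Meis1cko array lower (log2 difference -0.23). Of the 17 genes, 1 was lower and 1 higher without overlap, against 3.43% and 3.21% of all probe sets. The lowest p-values of the list were those of the small Maf protein Maff (0.44), of the Pou4f1 relative Pou4f3 (-0.49) and of Etv5. With the replicate block, Maff and Pou4f3 had an unadjusted p under 0.05 (limma adjusted p = 0.4 and 0.592). They were the only genes of the 17 under that cut, against 6.99% of all probe sets. Runx2 was not analysed here.

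Of 20 further transcription factors of sensory neurons, 19 were measured and none passed the adjusted threshold, with a median log2 difference of 0.02. Esrrg, an orphan nuclear receptor, read 455, 579.9 and 469.8 in controls and 653, 744 and 559 in Meis1cko (log2 difference 0.38). It was the only factor of the 19 with an unadjusted p under 0.05, against 2.32% of all probe sets, and its groups overlapped. Zfp521 and Prdm8 had -0.33 and -0.31. With the replicate block, 5 of the 19 had an unadjusted p under 0.05, against 6.99% of all probe sets. They were Onecut2 (0.38), Rora (0.43), Esrrg and Insm1 (0.31) upwards and Zfp521 downwards. In that fit 0 of the 19 passed the adjusted threshold (lowest limma adjusted p = 0.438). Onecut2, Rora and Insm1 are named after their values were seen. In all 3 pairs, 6 of the 19 were higher in Meis1cko and 1 was lower, against 13.2% and 15.7% of all probe sets.

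Genes known to depend on Runx1 in nociceptors were measured for 10 of 15, and 0 passed the adjusted threshold or an unadjusted p under 0.05. Their median log2 difference was -0.10, with 4 above 0 and 6 below. Th, the enzyme that marks low-threshold C fibres, read 1229, 1085 and 1993 in controls and 842, 790.0 and 1451 in Meis1cko, with overlap between the groups and a log2 difference of -0.49 (SE 0.30). Each Meis1cko array was lower than its partner, as was the case for 15.7% of all probe sets. With the replicate block Th had an unadjusted p under 0.05 (limma adjusted p = 0.265). It was the 1 gene of the 10 under that cut, against 6.99% of all probe sets. Mrgpra3, an itch receptor, had 0.21 and Tafa4, a secreted protein of C fibres, had -0.19.

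Genes of proprioceptors and touch neurons, the classes of Runx3, Etv1, Maf and Shox2, were measured for 9 of 11, and 0 passed the adjusted threshold. Differences were above 0 for 8 of the 9, with a median of 0.07, beside 21227 of all 45037 probe sets above 0. An unadjusted p under 0.05 was found for 1 gene, against 2.32% of all probe sets. This was Ntrk3, which codes for TrkC and had 627 ± 24.9 in controls and 876 ± 47.6 in Meis1cko (SD, n = 3 each), a log2 difference of 0.48 (SE 0.11, limma adjusted p = 1.0) and no overlap. Over all probe sets, 3.21% had every Meis1cko array above every control array. Slc17a7, a vesicular glutamate transporter, had 0.15. Ntrk2, which codes for the TrkB receptor that Shox2 controls, had 0.12. Of 7 listed neurotrophin receptors and peptidergic nociceptor genes, 5 were measured with a median of -0.12 and 0 passed the adjusted threshold. Scn10a, which codes for the sodium channel Nav1.8, had 0.48. It was the 1 gene of the 5 with an unadjusted p under 0.05, against 2.32% of all probe sets. Adcyap1 and Trpv1, a neuropeptide and the capsaicin receptor, had -0.18 and -0.22.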

How the data were processed

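Total RNA of DRGs from 3 Meis1cko and 3 control mice was measured on 6 one-colour Affymetrix arrays. The authors obtained raw data with the Affymetrix command console and used GeneSpring for the analysis, and the deposited values are normalized intensity values on a linear scale. The summary and normalization method is not given in the sources used here, the RNA extraction is given differently in the labels and in the methods, and dim probe sets may have been treated before deposit. The array medians lie between 62.5 and 65.5 and the lowest value is 5.56.

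Intensities were taken to log2 without an offset. The 64 control probe sets were left out, leaving 45037, of which the annotation gives 1 gene for 34945, several for 932 and none for 9160. Among the probe sets that name only that gene, the one with the highest mean log2 intensity stands for it, and the others are also given. Names not found as symbols were looked up through RefSeq, which links Drgx to Prrxl1 as a synonym. Tests between genotypes used the lmFit and eBayes functions (limma 3.58.1, R 4.3.3), checked on simulated data, with Benjamini-Hochberg adjustment over all 45037 and 0.05 as the threshold. Intervals are at 95%. The p-values without the block measure the spread between these arrays, 1 mouse each, with whatever arrays of the same number share. Those with the block measure the spread left after the replicate number is taken out. Numbers 1 to 3 come from the labels, which do not say what they mean. They were treated as pairs because deviations from the group means correlated at 0.424, 0.535 and 0.766 for equal numbers. Numbers 1 and 2 also correlated across genotypes, at 0.337 and 0.319, while number 3 against 1 or 2 gave from -0.52 to -0.60. The values thus set replicate 3 apart from the others more clearly than they pair 1 with 1 and 2 with 2. Other fits leave out arrays or change the offset, filter, normalization, weights or probe set summary.

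Every gene of the group is named. Of each other functional list, the 3 genes with the lowest p are named, with Meis1 and, of the partners, Cbfb, Ldb1, Isl2, Runx2 and Etv5. The marker lists are given as sums of brightest intensities and counts, and a marker is named only where it passed the threshold in a fit. The genes and lists were chosen with earlier results of these data known. A gene that the rule also names is not reported here.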

Additional observations from a re-analysis of the deposited data

How the results depend on the processing

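The intervals given come from 3 arrays per genotype without the replicate block, and the spread that arrays of the same number share is part of their width. Of 136 refits of the 8 genes, 131 kept their direction and side of the threshold and none passed it (lowest adjusted p = 0.245, Runx3 with array weights in limma). The log2 difference lay between 0.08 and 0.28 for Isl1, 0.13 and 0.54 for Runx3, -0.98 and -0.07 for Pou4f1, -0.46 and -0.02 for Maf and -0.34 and -0.06 for Drgx when single arrays were left out. Those that changed sign were Runx1, at -0.0023 without both replicate 3 arrays and between -0.22 and 0.24 when single arrays were left out, and Tlx3, between -0.17 and 0.0043 with single arrays left out. The count of genes passing was 0 of 7 in all 18 alternatives, including the methods' t-test. In that t-test 1 of the 7, Shox2, had an unadjusted p under 0.05, as did 1371 of all 45037 probe sets. Over all probe sets, 7 passed in the fit reported, 37 with the replicate block, 177 with array weights and 26 without both replicate 3 arrays. There were 11 after quantile normalization, 4 at or above the median intensity and 1 with an offset of 16 or 50. The methods' t-test gave 0 after Benjamini-Hochberg. Leaving out single arrays gave 1 to 15. The replicate block gave 1 fibroblast marker that passed, Lum (adjusted p = 0.00717, log2 difference -1.34), against 0 without it (adjusted p = 0.0686), and changed no other call of the genes and lists described. The causes were not tested.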
